A study of Mus musculus with 8 samples.

Results

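Ribosome biogenesis was followed through 34 genes whose products work in the nucleolus: the box C/D and box H/ACA small nucleolar ribonucleoproteins (snoRNPs), nucleolar chaperones, RNA polymerase I and the factors that build the small and large ribosomal subunits. They were taken by name from a list, and all 34 were found among the 53655 gene symbols of the count table. The list did not use expression values, but it was drawn up when results of these libraries were known. The libraries came from tuft cells, chemosensory epithelial cells, of the small intestine of naïve mice of the genotype Il25-RFP/+;Chat-GFP(Tg+), so cells of both groups carried both reporters. Cells that were CD45-, EPCAM+ and IL25-RFP+ were sorted by whether they also showed the Chat-GFP reporter of choline acetyltransferase, the enzyme that makes acetylcholine. There were 4 Chat-neg and 4 Chat-pos libraries. Animal ages are not given in the labels, nor is the animal behind each library, so the p-values below measure the spread between libraries, which may in part be technical.

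In the nucleolus, RNA polymerase I transcribes a long precursor that is cut and trimmed into the ribosomal RNAs. Box C/D snoRNPs guide methylation of the ribose, and box H/ACA snoRNPs guide conversion of uridine to pseudouridine, while large assembly complexes fold the RNA and add ribosomal proteins. In the intestinal epithelium this work is known to be heaviest in the dividing cells of the crypt, and transcription factors of the Myc family are known to drive many of its genes.

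The measured mRNA of 3 of the 24 listed genes tested was lower in Chat-pos than in Chat-neg tuft cells. They were the chaperone nucleolin (Ncl) and the box H/ACA proteins Nop10 and Nhp2. No gene of the list was higher. Over all genes tested, 2.87% were lower and 3.62% higher. Ncl fell by 1.08 ± 0.24 (SE) on the log2 scale, Nop10 by 0.76 ± 0.21 and Nhp2 by 1.18 ± 0.34. Ncl lost the call when Chat-neg replicate 4 was left out, and Nop10 and Nhp2 each lost it when any 1 of 5 libraries was, Chat-neg replicate 4 among them. In a bulk sort, a smaller number of cells that make these mRNAs and less of each mRNA per cell cannot be told apart.

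Depth decided how many of the genes could be read. Counts on named genes ranged from 87642 to 1176880 in Chat-neg and from 1757401 to 2541955 in Chat-pos libraries, while 36 unnamed entries of the table held 58.6% to 88.4% of all counts. Values below are CPM, counts per 1e6 counts of the 8919 genes tested, after TMM scaling. One count was worth 11.6 CPM in Chat-neg replicate 1, 0.863 to 1.60 CPM in the other Chat-neg libraries and 0.421 to 0.622 CPM in the Chat-pos libraries. Chat, the gene behind the reporter, ranged from 101 to 150 CPM in Chat-neg and from 290 to 361 CPM in Chat-pos libraries, without overlap. The 14 tuft cell markers were all detected in every library, with summed levels of 12053 to 20759 CPM in Chat-neg and 26774 to 28529 CPM in Chat-pos.

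Of the 34 genes, 24 passed the filter on low counts and were tested. A gene was called well measured when it was tested and averaged 20 CPM or more across the 8 libraries, as 10 genes did: Nop10, Npm1, Polr1d, Ncl, Nhp2, Ebna1bp2, Wdr43, Gnl3, Nop58 and Nifk. The other 14 tested genes lay below that line, and 10 genes were too low to test. Mean counts per library ran from 2.75 for Rrp1b to 229.75 for Nop10, and 19 of the 34 genes had a mean under 20 counts. In Chat-neg replicate 1, 11 genes were at 0, where the limit that a count of 0 allows was set at 3 counts, or 34.9 CPM; the exact Clopper-Pearson interval at 95%, used for Nhp2 below, reaches 42.9 CPM. Its olfactory and vomeronasal receptor genes, most of which are best known from sensory neurons of the nose though some are described in gut epithelium, summed to 4712 CPM, against 173 to 837 CPM in the other libraries.

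By the quasi-likelihood test of edgeR, adjusted after Benjamini and Hochberg, 0 of the 24 tested genes were higher in Chat-pos, where 3.62% of all genes tested were higher, and 3 were lower, where 2.87% of all were lower. Over all genes, 323 were higher and 256 lower, against 225 higher and 380 lower with total count scaling. Of the 24 listed genes, limma-voom also called 0 higher. DESeq2 called 0 higher as well, but it gave an adjusted p only for the well measured genes among them. At an unadjusted p under 0.05, 8 of the 24 were lower against 9.88% of all genes, and 0 were higher against 10.9%. The groups of 4 libraries did not overlap for 3 genes, Nop10, Nolc1 and Pes1, with Chat-pos below; 5.42% of all genes showed that order. For 0 genes did Chat-pos lie wholly above, against 8.58% of all genes.

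The fitted difference was below 0 for 21 of the 24 genes and above 0 for Polr1d, Gnl3 and Utp3; with relative log expression scaling it was below 0 for 20, since Nifk crossed to 0.0048. Its median was -0.60, beside -0.02 over all genes tested, of which 51.5% were below 0. Because the filter keeps a low gene more easily when 1 group is high, the 24 do not stand for all 34. Without the filter, 27 of 34 were below 0 with a median of -0.53, when the median of all genes was -0.34. That fit covered 32856 genes, most of them too low for the filter, so the -0.34 is not a median over genes of similar level.

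**Figure D1:**
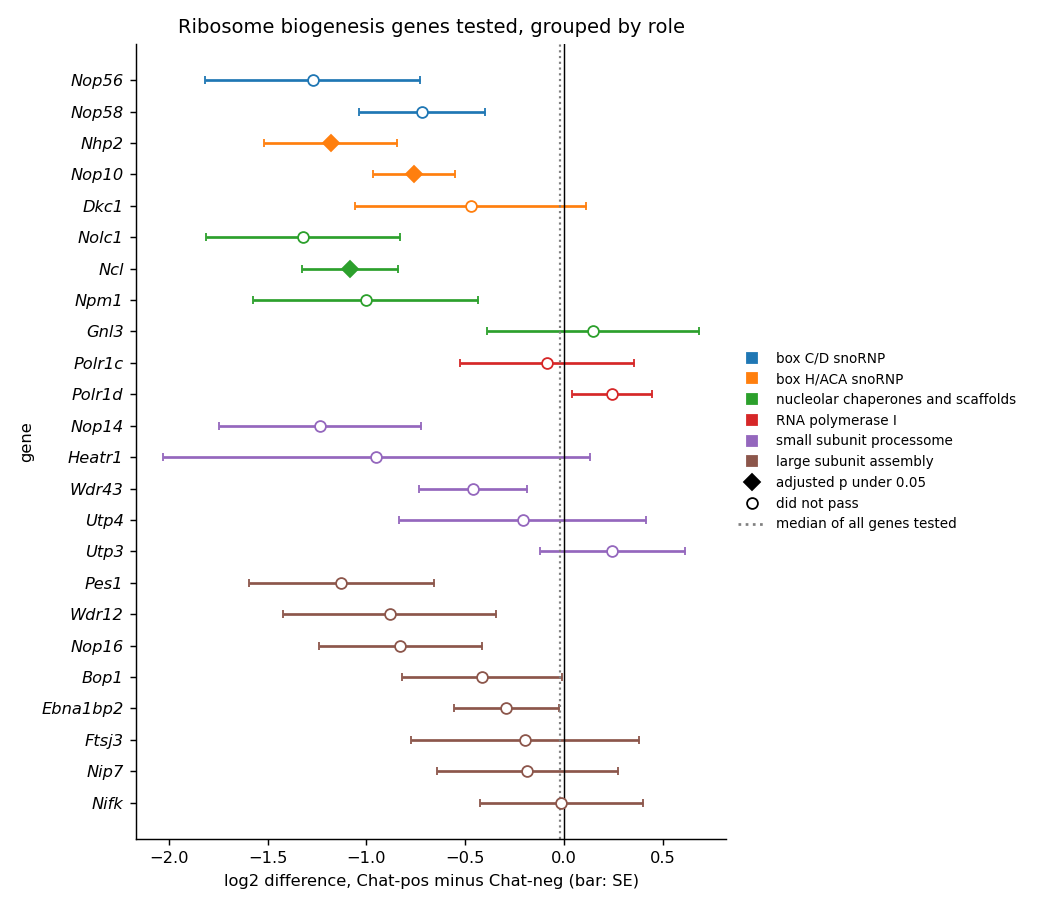
Log2 difference between Chat-pos and Chat-neg (x axis, points with SE bars) for the 24 genes tested, grouped by role, with filled diamonds for an adjusted p under 0.05 and a dotted line at the median of all genes tested. Ncl, Nop10 and Nhp2 are the filled points, and the points of 21 genes lie left of 0.

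The sequences just upstream of the RefSeq starts of the 3 called genes are shown to place them in the genome and to show how unlike they are. RefSeq windows of 300 bases, 250 before and 50 after the start of transcription, were matched for 30 of the 34 genes. For each called gene, the 120 bases before the RefSeq start are given 5′ to 3′ on the gene's strand (GRCm38.p6), with a match to the ETS-type letters in capitals. The Ncl stretch is chr1:86359456-86359575 on the minus strand, the Nop10 stretch chr2:112261806-112261925 on the plus strand and the Nhp2 stretch chr11:51619653-51619772 on the plus strand. In GENCODE, Nhp2 starts at 51619735, before the RefSeq start. The end of its stretch, with the ETS-type match, thus lies inside the gene as GENCODE annotates it.
Ncl: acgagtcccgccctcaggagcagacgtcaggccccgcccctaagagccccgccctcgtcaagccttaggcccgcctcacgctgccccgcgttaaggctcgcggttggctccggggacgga
Nop10: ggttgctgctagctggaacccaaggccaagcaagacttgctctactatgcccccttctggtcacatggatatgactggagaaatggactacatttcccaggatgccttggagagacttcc
Nhp2: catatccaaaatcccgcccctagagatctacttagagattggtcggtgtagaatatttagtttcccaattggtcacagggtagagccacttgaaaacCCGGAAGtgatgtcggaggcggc

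G and C made up 71.7% of the Ncl stretch, 51.7% of that of Nop10 and 48.3% of that of Nhp2. The ETS-type letters CCGGAAG, or CTTCCGG on the other strand, stood in 11 of the 30 windows (36.7%), against 9.93% of 27025 genes with a window and 22.6% of the 7008 of these that were tested. The E-box CACGTG, which reads alike on both strands and is the letters Myc and Max bind, stood in 4 of 30 (13.3%), against 8.09% and 12.3%. The NRF1-type core GCGCATGC, or GCATGCGC on the other strand, stood in 1 of 30, that of Ftsj3, against 3.05% and 6.32%, and CTCGCGAG, alike on both strands, in 0 of 30, against 1.04% and 2.43%. A match is only a run of letters, and the lack of one says only that these letters are not in this window. No motif's letters contain those of another of the 4.

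Box H/ACA snoRNPs hold 4 core proteins. Of the 3 that could be tested, 2 were lower in Chat-pos, against 2.87% of all genes tested. Nop10, the smallest of the 4 proteins (chr2:112261926-112263269, plus strand), measured 186, 218, 262 and 279 CPM in Chat-neg replicates 1 to 4 and 174, 107, 136 and 154 CPM in Chat-pos replicates 1 to 4. Every Chat-neg library was above every Chat-pos library, although Chat-neg replicate 1, at 16 counts, and Chat-pos replicate 1 lay close together. The means were 236 ± 42.3 and 143 ± 28.7 CPM (SD, n = 4 each). Nop10 fell by 0.76 ± 0.21 on the log2 scale (adjusted p = 0.0225, edgeR).

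Nhp2, the core protein that joins Nop10 and dyskerin on the guide RNA (chr11:51619735-51623714, plus strand), measured 34.9, 63.7, 64.7 and 173 CPM in Chat-neg replicates 1 to 4. The Chat-pos libraries measured 30.5, 52.4, 40.6 and 37.0 CPM. Chat-neg replicate 4 stood far above the other 7 libraries, and replicate 1, with 3 counts and a 95% exact Clopper-Pearson interval of 7.20 to 102 CPM for counting error only, lay within the Chat-pos range. The means were 84.2 ± 61.0 and 40.1 ± 9.20 CPM (SD, n = 4 each), and Nhp2 fell by 1.18 ± 0.34 (adjusted p = 0.0461, edgeR). Its exons share 44 bases with those of Rmnd5b on the opposite strand, and these libraries do not mark strand.

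Dkc1 encodes dyskerin, the pseudouridine synthase of the particle, and its difference was -0.47 ± 0.58 (adjusted p = 0.716, edgeR). Its highest value was 43.3 CPM in Chat-neg replicate 4 and its lowest was 0 in Chat-neg replicate 1, with 7.15 to 26.5 CPM in Chat-pos. Gar1, the outer protein of the particle, averaged 4.38 counts per library and was not tested. The groups overlapped for the catalytic subunit and not for Nop10, but whether the differences of Dkc1 and Nop10 differ was not tested.

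**Figure D2:**
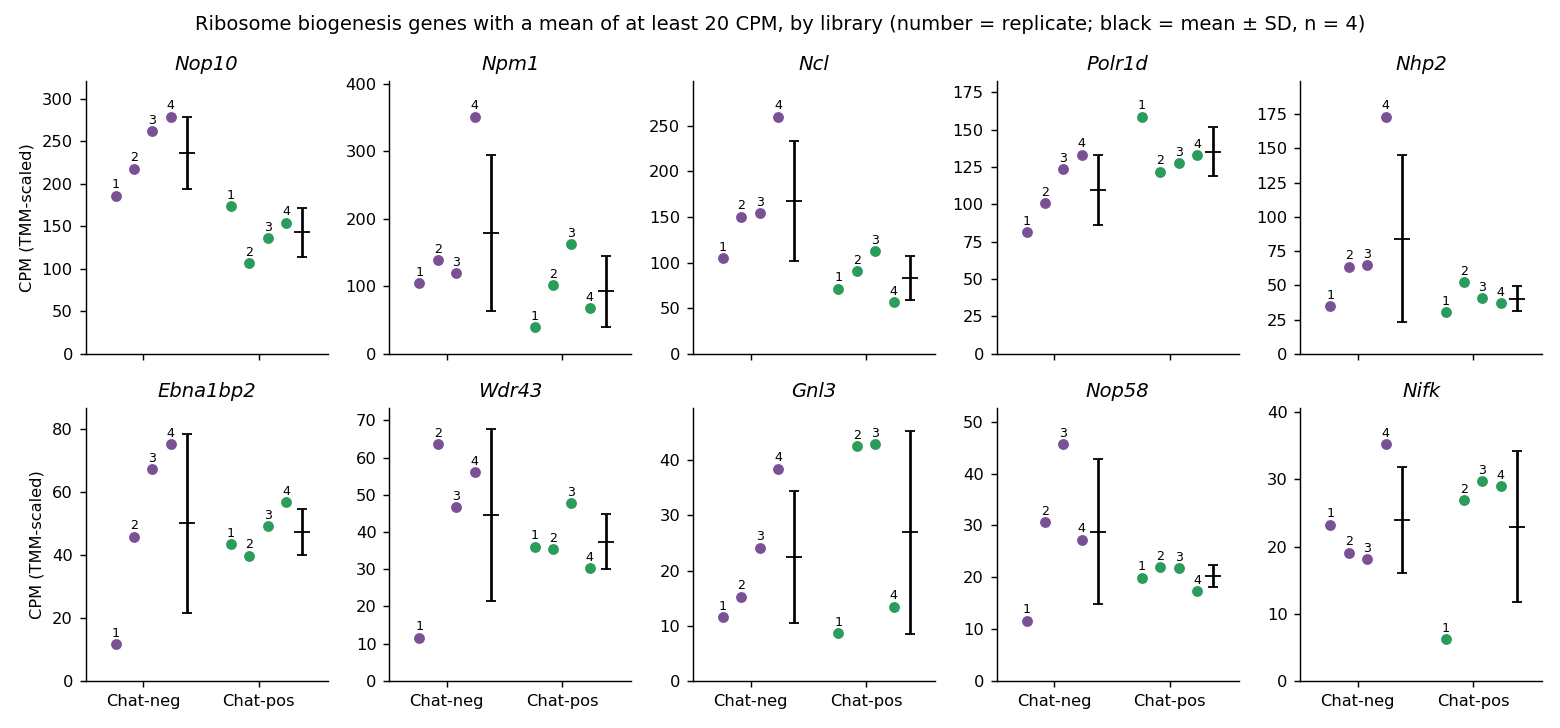
CPM (y axis, each panel from 0) of the 10 well measured genes in the Chat-neg and Chat-pos libraries, 1 point per library with its replicate number, and the mean ± SD of 4 libraries in black. Nop10 separates the groups, and Chat-neg replicate 4 is the highest point of all 8 libraries in 6 of the 10 panels.

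The box C/D particle was measured less well, and none of its genes passed. Nop58, a scaffold protein of the particle, measured 11.6, 30.6, 45.8 and 27.3 CPM in Chat-neg replicates 1 to 4 and 19.9, 22.0, 21.7 and 17.3 CPM in Chat-pos. Apart from Chat-neg replicate 1, where it had 1 count, the Chat-neg values lay above all Chat-pos values. The difference of Nop58 was -0.72 ± 0.32 (adjusted p = 0.187, edgeR). Nop56, the partner scaffold, had a difference of -1.27 ± 0.54 (adjusted p = 0.181, edgeR), and Chat-neg replicate 4 was at 52.9 CPM where the other 7 libraries ranged from 4.98 to 23.3 CPM. Fbl, fibrillarin, the methyltransferase of the particle, averaged 7.38 counts per library and was not tested.

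Several of these mRNAs carry snoRNAs in their introns, which are released when the transcript is spliced. The annotation places 19 snoRNAs within the span of 6 of the genes, on the same strand: Nop56, Nop58, Dkc1, Ncl, Gnl3 and Wdr43. Whether each lies in an intron was not checked. Some share 74-base stretches with annotated transcripts of Ncl, Nop58 and Gnl3, where a read cannot be placed with certainty. Together the 19 snoRNAs had 6 counts over all 8 libraries, from 2 snoRNAs, Snord92 and Snord82, so the level of the guide RNAs was not detectable at this depth by this poly(A)-primed method.

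Among the nucleolar chaperones and scaffolds, Ncl was called and Npm1 was not. Ncl encodes nucleolin, which binds the ribosomal RNA precursor (chr1:86344719-86359400, minus strand). It measured 105, 150, 155 and 260 CPM in Chat-neg replicates 1 to 4 and 71.5, 90.5, 112 and 56.4 CPM in Chat-pos replicates 1 to 4. The groups overlapped only in that Chat-neg replicate 1 lay below Chat-pos replicate 3. The means were 167 ± 65.7 and 82.7 ± 24.3 CPM (SD, n = 4 each), and Ncl fell by 1.08 ± 0.24 on the log2 scale (adjusted p = 0.00764, edgeR). An annotated microRNA, mmu-mir-3535, shares 83 bases with its exons on the same strand.

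Npm1, nucleophosmin, a histone and ribosomal protein chaperone (chr11:33152287-33163206, minus strand), measured 105, 139, 120 and 351 CPM in Chat-neg and 39.8, 101, 162 and 67.7 CPM in Chat-pos replicates 1 to 4. Chat-neg replicate 4 stood above all others, and Chat-pos replicate 3 was second. The means of 179 ± 116 and 92.7 ± 52.6 CPM (SD, n = 4 each) gave a difference of -1.005 ± 0.57, which did not pass (adjusted p = 0.399, edgeR). The fold was thus about that of Ncl with a larger spread between libraries. Of the 74-base stretches of Npm1's exons, 18.3% also occur in the exons of other genes (8 genes in all), so part of its reads cannot be placed with certainty.

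Gnl3, nucleostemin, a nucleolar GTP-binding protein known from stem and dividing cells, measured 11.6, 15.3, 24.2 and 38.5 CPM in Chat-neg and 8.71, 42.6, 43.0 and 13.5 CPM in Chat-pos replicates 1 to 4. Chat-pos replicates 2 and 3 were the 2 highest libraries, and the other Chat-pos libraries were among the 3 lowest. The difference of 0.15 ± 0.54 did not pass (adjusted p = 0.921, edgeR), and it was -1.01 with those 2 libraries left out. Nolc1, a chaperone that carries snoRNPs, had a difference of -1.32 ± 0.49 (adjusted p = 0.108, edgeR), with 13.8 to 34.9 CPM in Chat-neg and 3.11 to 13.2 CPM in Chat-pos libraries. Those ranges just miss each other, and the mean was 14 counts per library. The 34.9 CPM was 3 counts in Chat-neg replicate 1.

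Of 4 subunits of RNA polymerase I, 2 were tested and neither passed. Polr1d, a small subunit shared by RNA polymerases I and III (chr5:147077050-147111597, plus strand), measured 81.4, 101, 123 and 133 CPM in Chat-neg and 159, 122, 128 and 133 CPM in Chat-pos replicates 1 to 4. The ranges overlapped and both group spreads were small. With means of 110 ± 23.2 and 135 ± 16.2 CPM (SD, n = 4 each), its difference was 0.24 ± 0.20 (adjusted p = 0.555, edgeR). Polr1c, the other shared subunit, was at 9.33 to 30.5 CPM over all libraries with a difference of -0.09 ± 0.44 (adjusted p = 0.941, edgeR). Polr1a and Polr1b, which form the catalytic core that only RNA polymerase I has, averaged 8.25 and 6.25 counts per library and were not tested. Polr1a ranged from 2.55 to 34.9 CPM in Chat-neg and from 2.36 to 6.84 CPM in Chat-pos, and Polr1b from 3.21 to 11.6 CPM and from 2.95 to 4.25 CPM. The highest of these values, 34.9 and 11.6 CPM, were 3 counts and 1 count in Chat-neg replicate 1. Without the filter on low counts, their fitted differences were -0.78 and -0.94 (adjusted p = 0.502 and 0.456, edgeR). In that fit the median of all genes was also below 0, as given above. The tests thus covered only the shared subunits and say nothing of those particular to RNA polymerase I.

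The small subunit processome, which folds and cuts the first part of the precursor, had 5 of its 7 genes tested and none called. Wdr43, a processome subunit, measured 11.6, 63.7, 46.6 and 56.2 CPM in Chat-neg and 36.1, 35.4, 47.7 and 30.3 CPM in Chat-pos replicates 1 to 4. The lowest of the 8 was Chat-neg replicate 1, with 1 count, and the groups overlapped. Its difference was -0.46 ± 0.27 (adjusted p = 0.357, edgeR). The remaining tested genes were Nop14 at -1.23 ± 0.51, Heatr1 at -0.95 ± 1.08, Utp4 at -0.21 ± 0.62 and Utp3 at 0.24 ± 0.36, with adjusted p from 0.153 to 0.898. Utp15 and Rrp9 were not tested.

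Of 12 factors of large subunit assembly, 8 were tested and none passed, and all 8 differences were below 0, from -1.13 to -0.01. Ebna1bp2, an early assembly factor, measured 11.6, 45.9, 67.3 and 75.4 CPM in Chat-neg and 43.5, 39.9, 49.1 and 56.8 CPM in Chat-pos replicates 1 to 4. All Chat-pos values fell inside the Chat-neg range, and its difference was -0.29 ± 0.27 (adjusted p = 0.587, edgeR). Nifk, a nucleolar RNA-binding protein that interacts with Ki-67, measured 23.3, 19.1, 18.1 and 35.3 CPM in Chat-neg and 6.22, 26.9, 29.8 and 29.0 CPM in Chat-pos. Chat-pos replicate 1 was far below the other 7, and the difference was -0.01 ± 0.41 (adjusted p = 0.995, edgeR).

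Pes1, Bop1 and Wdr12 form one complex of large subunit assembly. Pes1 ranged from 13.8 to 23.3 CPM in Chat-neg and from 3.79 to 9.95 CPM in Chat-pos, which do not overlap. The 23.3 CPM was 2 counts in Chat-neg replicate 1, whose 95% exact Clopper-Pearson interval of 2.82 to 84.1 CPM reaches below the Chat-pos values. Of the 74-base stretches of Pes1, 12.8% also occur in other genes. Its difference of -1.13 ± 0.47 did not pass (adjusted p = 0.157, edgeR). Wdr12 was at -0.88 ± 0.54 and Bop1 at -0.42 ± 0.41, with overlapping groups. The other tested factors were Nop16 at -0.83 ± 0.41, Ftsj3 at -0.20 ± 0.58 and Nip7 at -0.19 ± 0.46. Nop2, Noc2l, Rrs1 and Rrp1b averaged 9.25, 5.75, 5.63 and 2.75 counts per library and were not tested.

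Levels of different genes can be compared only per length of transcript. Per kilobase of the annotated transcript with the longest coding sequence, the mean level over 8 libraries was highest for Nop10 at 171 CPM per kb, then Polr1d at 102, Npm1 at 83.1 and Nhp2 at 59.6 CPM per kb. Nop16 came next at 24.8, Ebna1bp2 at 16.5 and Ncl at 15.2 CPM per kb. Ncl thus ranked below Nhp2 on this scale although its CPM was higher, since the transcript taken for it is 8202 bases long. The rank of Ncl depends on that choice of transcript, and other choices were not tried. By group, Nop10 was at 213 CPM per kb in Chat-neg and 129 in Chat-pos, Polr1d at 91.7 and 113, Npm1 at 109 and 56.8, and Nhp2 at 80.8 and 38.5. Polr1d was therefore below Nop10 in both groups, but above Npm1 only in Chat-pos; the differences between genes were not tested.

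One Chat-neg library carried much of the group's level. Chat-neg replicate 4 was the highest of all 8 libraries for 16 of the 34 genes, and the highest of the 3 deeper Chat-neg libraries for 22. How often that library was the highest over all genes tested was not counted, so these counts are not particular to the list. Summed over the 34 genes, the Chat-neg replicates 1 to 4 were at 860.9, 1107, 1148 and 1889 CPM, and the Chat-pos replicates at 743.4, 869.1, 1001 and 761.6 CPM. Only replicate 1 of Chat-neg lay inside the Chat-pos range. Without the 4 most abundant genes the sums were 383.9, 499.4, 487.7 and 864.8 CPM in Chat-neg and 299.2, 448.9, 463.1 and 350.1 CPM in Chat-pos.

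Markers of other cell types varied between the same libraries. The summed stem cell markers (7 genes, Lgr5 and Olfm4 among them) were at 1093 CPM in Chat-neg replicate 4 and at 132.1 to 347.8 CPM in the other Chat-neg libraries, with 4 of the 7 at 0 in replicate 1 and none at 0 elsewhere. In Chat-pos they were at 194.1, 695.3, 1171 and 149.8 CPM in replicates 1 to 4. Much of the highest sums was Olfm4, at 722 CPM in Chat-neg replicate 4 and 422 and 913 CPM in Chat-pos replicates 2 and 3. Slc12a2 was highest in Chat-neg replicate 4, at 242 CPM. Lgr5 was lower there, at 38.5 CPM, than in any Chat-pos library, at 46.3 to 69.4 CPM. The order of the Chat-pos sums was also that of Olfm4 alone. It was the same for the summed biogenesis genes except that replicates 1 and 4 changed places. The 21 proliferation genes summed to 1199 CPM in Chat-neg replicate 4, to 364.3 to 546.8 CPM in the other Chat-neg libraries and to 211.5 to 470.2 CPM in Chat-pos. Summed Paneth cell markers (10 genes) reached 59505 and 32527 CPM in Chat-pos replicates 2 and 3, against 496.1 to 3551 CPM elsewhere. Summed T lymphocyte markers (10 genes, with 4 to 7 of them at 0 in Chat-neg replicate 1 and Chat-pos replicates 1, 3 and 4) were at 216.6 to 480.8 CPM in Chat-neg, at 446.6 CPM in Chat-pos replicate 2 and at 11.4 to 15.1 CPM in the other Chat-pos libraries. Summed goblet cell markers (7 genes, none at 0 in any library) were at 511.9, 1088, 5526 and 2152 CPM in Chat-neg and at 484.6, 1571, 901.6 and 306.3 CPM in Chat-pos replicates 1 to 4. Of the 7, 6 had a difference below 0, against 51.5% of all genes tested, with a list median of -2.01. Only Clca1, a secreted goblet cell protein, passed, where 2.87% of all genes were lower. It fell by 3.06 ± 0.55 (adjusted p = 0.0098, edgeR). Summed enterocyte markers (10 genes, none at 0 in any library) were at 21791 to 45891 CPM in Chat-neg and 33528 to 55074 CPM in Chat-pos. Most of that came from Fabp1, and in every library the sum was above that of the tuft cell markers. No enterocyte marker passed by edgeR. Summed enteroendocrine markers (9 genes, up to 6 of them at 0 in a library) were at 593.3 to 1601 CPM in Chat-neg and 1217 to 1927 CPM in Chat-pos, mostly from the hormone gene Sct. Chat-neg replicate 4 alone held much of the granule gene Chgb, at 345 CPM (215 counts) against at most 8.92 CPM elsewhere, and of the hormone gene Tac1, at 239 CPM (149 counts) against at most 11.6 CPM elsewhere. The part of these cells in the lower Ncl, Nop10 and Nhp2 was not tested.

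**Figure D3:**
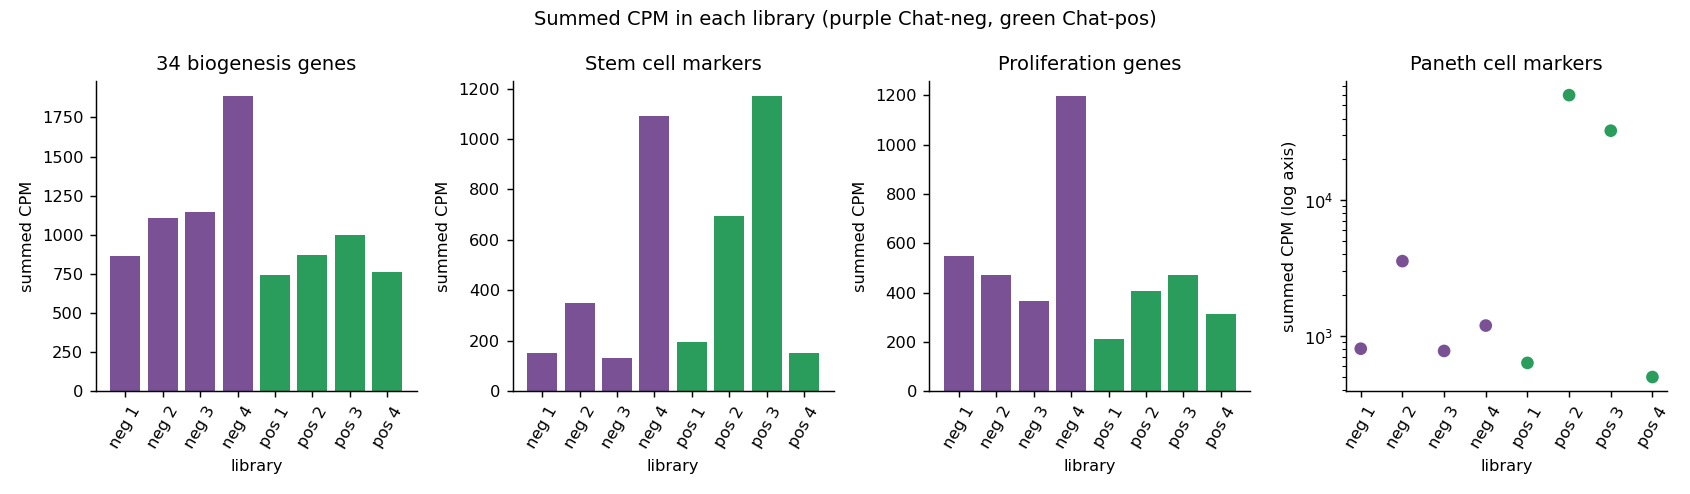
Summed CPM (y axes; linear from 0, and a log axis for the Paneth cell panel) of the 34 biogenesis genes, the stem cell markers, the proliferation genes and the Paneth cell markers in each library. Chat-neg replicate 4 has the highest biogenesis sum (1889 CPM) and proliferation sum (1199 CPM), and Chat-pos replicates 2 and 3 have the highest Paneth cell sums.

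With single libraries left out, Ncl passed in 7 of 8 fits, with differences from -1.24 to -0.77, and lost the call without Chat-neg replicate 4 (adjusted p = 0.0708, edgeR). Nop10 passed in 3 of 8, with differences from -0.87 to -0.64 and adjusted p up to 0.124 (edgeR). It lost the call without Chat-neg replicate 2, 3 or 4 and without Chat-pos replicate 2 or 3. Nhp2 passed in 3 of 8, with differences from -1.33 to -0.57. Its call ended when 1 of 5 libraries was left out, Chat-neg replicates 2 and 4 and Chat-pos replicates 1, 3 and 4, with adjusted p up to 0.299 (edgeR). In short, the direction of the 3 genes was kept in each of the 8 fits, and only Ncl kept its call in most of them.

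With the Paneth-rich Chat-pos replicates 2 and 3 left out together, Ncl was at -1.34 (adjusted p = 0.0103, edgeR), Nop10 at -0.45 (adjusted p = 0.407) and Nhp2 at -1.32 (adjusted p = 0.0975). With Chat-neg replicate 4 left out as well, a choice made after the values were seen, none of the called genes passed in edgeR: Ncl was at -1.05 (adjusted p = 0.0568), Nop10 at -0.36 (adjusted p = 0.616) and Nhp2 at -0.72 (adjusted p = 0.342). The drop in Ncl was thus about as large among the remaining 5 libraries as among all 8, and those of Nop10 and Nhp2 were smaller.

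**Figure D4:**
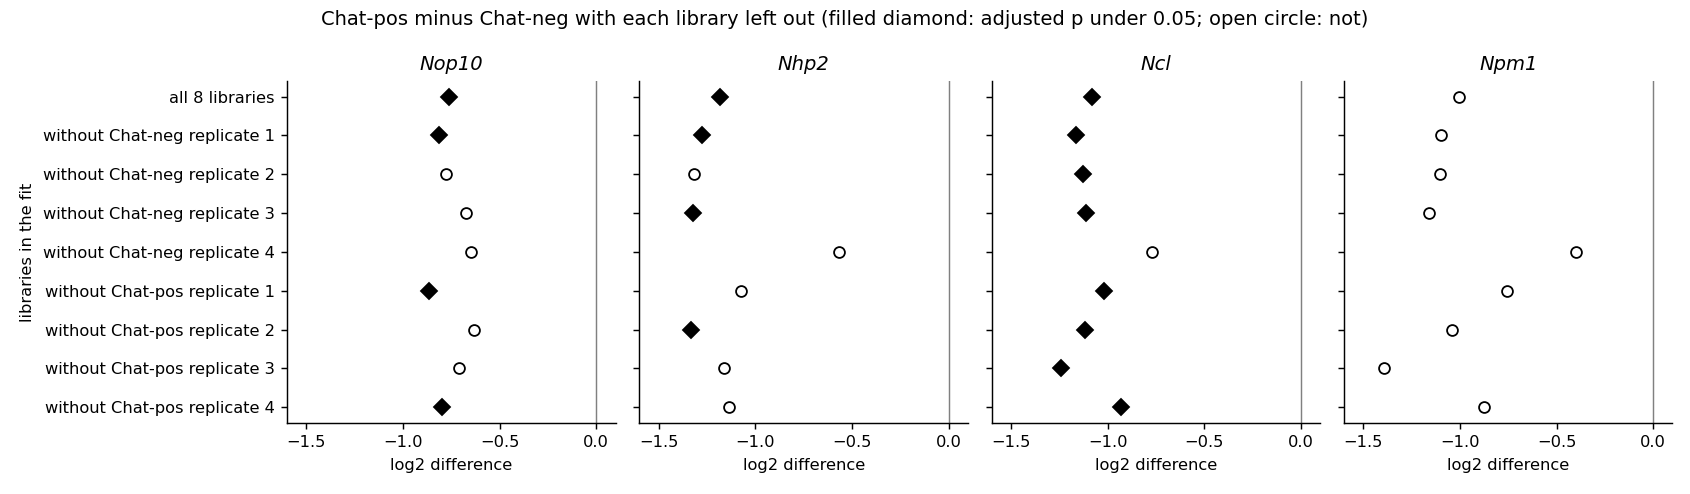
Log2 difference of Ncl, Nop10, Nhp2 and Npm1 (x axis, Chat-pos minus Chat-neg) with all libraries and with each library left out in turn (y axis), as filled diamonds where the adjusted p is under 0.05 and open circles elsewhere. Leaving out Chat-neg replicate 4 gives the smallest drop for Ncl (-0.77), Nhp2 (-0.57) and Npm1 (-0.40).

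Other genes of the pathway were taken from a second list of 148 names, of which 111 were tested. Of these, 3 were lower, 1 was higher and 80 were below 0, against 51.5% of all genes tested, with a median difference of -0.19. The calls were no more frequent than among all genes tested, of which 2.87% were lower and 3.62% higher, so their number is no result about the pathway. Their summed level differed little between the groups, with 3723 to 4300 CPM in Chat-neg and 3511 to 3862 CPM in Chat-pos libraries. By role, the median was -0.39 over 41 large subunit factors, -0.33 over 38 small subunit factors, -0.17 over 6 snoRNP assembly factors, -0.14 over 7 genes of the RNA polymerase I machinery and 0.06 over 19 subunits of the exosome and RNase MRP, which trim the precursor. In that last group 0 genes passed by edgeR, and 0 had an unadjusted p under 0.05.

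Taf1d, a subunit of the factor that recruits RNA polymerase I to the ribosomal DNA, measured 58.2, 59.9, 53.5 and 83.4 CPM in Chat-neg and 20.5, 37.2, 47.3 and 22.7 CPM in Chat-pos replicates 1 to 4. No Chat-pos value reached the lowest Chat-neg value, and Taf1d fell by 1.00 ± 0.28 (adjusted p = 0.0277, edgeR). Rrp8, a nucleolar methyltransferase, fell by 2.76 ± 0.67 (adjusted p = 0.0104, edgeR), but on 1 to 12 counts per library. Cebpz, a large subunit assembly factor, was at 17.8 to 34.9 CPM in Chat-neg and 5.47 to 11.2 CPM in Chat-pos and fell by 1.43 ± 0.41 (adjusted p = 0.0316, edgeR).

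Sbds, which works in the last step of large subunit maturation in the cytoplasm, went the other way. It measured 58.2, 107, 109.6 and 105.9 CPM in Chat-neg and 160, 153, 176 and 181 CPM in Chat-pos replicates 1 to 4, without overlap, and rose by 0.72 ± 0.20 (adjusted p = 0.0277, edgeR). With single libraries left out, the calls of Taf1d and Rrp8 held in 4 of 8 fits, that of Cebpz in 3 and that of Sbds in 2.

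Myc itself, the transcription factor known for driving this programme, had 1 to 15 counts per library and was not tested. Of the 7 genes of its network that were tested, 2 were higher in Chat-pos and 0 lower by edgeR, against 3.62% and 2.87% of all genes tested. At an unadjusted p under 0.05, 0 of the 7 were lower, against 9.88% of all genes. The median difference was 0.06, with 3 of the 7 below 0. Mxd1, a partner of Max known to oppose Myc, measured 58.2, 138, 118 and 117 CPM in Chat-neg and 212, 230, 198.5 and 216 CPM in Chat-pos replicates 1 to 4. No Chat-neg value reached the lowest Chat-pos value, and Mxd1 rose by 0.88 ± 0.21 (adjusted p = 0.00844, edgeR), a call held in 8 of 8 fits with 1 library left out. Mlx, a Max-like protein that also pairs with the Mxd proteins, rose by 0.90 ± 0.26 (adjusted p = 0.0319, edgeR), held in 3 of 8. A part of the Myc network in the lower Ncl, Nop10 and Nhp2 was not tested.

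Of 21 proliferation genes, 16 were tested, 15 were below 0 and the median was -0.996. Over all genes tested, 51.5% were below 0 and 2.87% were called lower. Only Tubb5, a beta-tubulin, passed: it fell by 0.94 ± 0.24 (adjusted p = 0.0146, edgeR), a call held in 5 of 8 fits with 1 library left out. The mRNAs of the cytoplasmic ribosomal proteins, the cargo of the pathway, summed over 77 genes to 18824 to 37385 CPM in Chat-neg and 13853 to 16523 CPM in Chat-pos libraries. Those ranges did not overlap, and Chat-neg replicate 4 was again the highest; many of these genes have near-identical copies, which makes the count of each uncertain.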

How the data were processed

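Raw counts per gene symbol were deposited by the authors in 1 table. Per the labels' protocols, sorted cells were lysed in SMARTer v4 reagents, and Nextera XT libraries were read as single reads; per the submitters' processing notes the genome build was GRCm38. The sources used here do not name the aligner, the counter or the annotation. Such libraries carry no strand and no molecular identifiers, so intervals and the limit at 0 counts cover counting error only.

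The members and lists were chosen with earlier results of these data known. Of 53806 table entries, 36 without a name were left out, and 229 sharing 114 symbols were summed. Counts of 8919 genes that passed filterByExpr were tested with edgeR 4.0.16 (R 4.3.3; TMM, robust quasi-likelihood fit, group only, Benjamini-Hochberg threshold 0.05). DESeq2 1.42.0 and limma 3.58.1 (voom) were alternatives. CPM is per 1e6 scaled counts of tested genes. Positions and overlaps came from GENCODE M21. Within groups, all pairs of libraries differed by more than sampling noise. Values in all 8 libraries are printed for members that passed and for the 10 members with the highest mean CPM, and at most 4 genes per further pathway list, those with the smallest p, are named.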

Additional observations from a re-analysis of the deposited data

Results flagged for a closer look

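Within a group of 4 libraries, 3 named genes had 1 library whose distance from its nearest neighbour was a larger share of the group's range than Dixon's 95% critical value allows; 36 groups were examined, and chance marks about 1 in 20. Npm1 was at 351 CPM in Chat-neg replicate 4, above the other 3 Chat-neg libraries. Nifk was at 6.22 CPM in Chat-pos replicate 1, below the other 3 Chat-pos libraries. Sbds was at 58.2 CPM in Chat-neg replicate 1, the shallowest library.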

How the results depend on the processing

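Of 321 recomputed differences of named genes, 238 kept their direction and side of the threshold, 68 kept the direction and lost the call, and 15 changed sign. The 238 include genes that had not passed and again did not pass, so they do not measure how stable the calls were. The 68 come only from genes that had been called. Genes of the 34 called lower numbered 0 to 3 with single libraries left out, 1 without the count filter, 1 without Chat-pos replicates 2 and 3 and 0 when Chat-neg replicate 4 was also left out. None of the 34 was higher in any of these fits, in edgeR, DESeq2 or limma-voom. DESeq2 gave an adjusted p only for the well measured genes, so it could not call the rest. The 148 further genes gave 0 to 1 higher and 0 to 4 lower with single libraries left out; 0 were higher under total count scaling, 1 was lower without the filter and 1 with DESeq2, 0 were higher and 1 lower without Chat-pos replicates 2 and 3, and 0 and 0 when Chat-neg replicate 4 was also out. Over all genes, 138 to 360 were higher and 110 to 309 lower with single libraries left out, 143 lower without the filter, 86 lower without Chat-pos replicates 2 and 3, and 192 higher and 48 lower when Chat-neg replicate 4 was also out. Against 323 higher and 256 lower by TMM, total count scaling, which moved the median of all genes to -0.14, gave 225 and 380, and limma-voom 314 and 355. Nhp2 lost its call under size factors by relative log expression (adjusted p = 0.0523, edgeR), a 5 CPM filter (0.0537), limma-voom (0.0646) and library sizes from all named genes (0.0558). Without the filter Ncl (0.0756) and Nop10 (0.309) lost theirs.

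Nifk, at -0.01, turned to 0.0048 by relative log expression, 0.20 without the filter, 0.0060 with the 5 CPM filter, 0.16 with the replicate block, 0.31 without Chat-neg replicate 4, 0.29 without Chat-pos replicate 1, 0.032 with background reads subtracted, 0.0087 with library sizes from all named genes, and 0.049 without Chat-neg replicate 4 and Chat-pos replicates 2 and 3. Nifk ranged from -0.15 to 0.31 and Gnl3 from -0.15 to 0.50 with single libraries left out. Gnl3 turned to -0.05 without Chat-neg replicate 2, -0.15 and -0.14 without Chat-pos replicates 2 and 3 in turn, -1.01 without both and -0.65 when Chat-neg replicate 4 was also out, where Ebna1bp2 was at 0.081. The causes were not tested. The same replicate number did not pair libraries (correlations of deviations from -0.02 to 0.05). With the number as a block, 2 of the 34 were lower; Nhp2 lost its call (-0.99, adjusted p = 0.0658, edgeR), and 290 genes were higher and 230 lower. Leaving out Chat-neg replicate 4 and Chat-pos replicates 2 and 3, and library sizes from all named genes, were chosen after seeing the data. Depth limits the 10 untested genes and every value in Chat-neg replicate 1.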
